A study of Mus musculus with 15 samples.

Results

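Trem2, Tyrobp, Fcer1g, Fcgr1, Fcgr2b, Fcgr3, Fcgr4, Syk, Plcg2 and Inpp5d, 10 genes of Trem2-Tyrobp and Fc receptor signalling, were taken by symbol from the 43629 genes counted in whole-brain RNA of 15 mice. All mice were male, wildtype and of the C57BL/6J strain. They were young (3 months by the labels) or old (24 months by the labels) and ate either without restriction (ad libitum, AL) or on alternate days (every-other-day feeding, EOD, begun at 2 months of age and called intermittent fasting in the labels). The AL groups held 4 young and 4 old mice, and the EOD groups 3 young and 4 old mice, so young EOD mice had been on the regimen only briefly and old EOD mice for most of their lives. Each mouse gave 1 library, and the comparisons ask how these genes differ with age under each diet, with diet at each age, and whether the difference with age depends on diet.

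In the brain these genes are used mainly by microglia, the resident macrophages. Trem2 is a surface receptor for lipids and lipoproteins and does not signal by itself. It pairs with the adaptor Tyrobp (DAP12), and the activating receptors for the constant part of IgG antibodies, Fcgr1, Fcgr3 and Fcgr4, pair with the related adaptor Fcer1g. Both adaptors carry ITAM motifs, which recruit the kinase Syk once phosphorylated, and Syk in turn activates phospholipase C gamma 2 (Plcg2). The receptor Fcgr2b and the phosphatase Inpp5d (SHIP1) oppose this signal.

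The libraries held 5198748 to 13610729 counts (median 9886766). The third young AL mouse stood apart from the rest, with the largest total but the fewest genes detected (17280, against 19054 to 20880 in the other 14 mice). Many results that rest on it are therefore given with and without it. Libraries were sequenced on 3 lanes, and lane 3 held no young EOD mouse. Levels are given as CPM (counts scaled to the TMM-normalised library size), and differences as log2 fold changes from edgeR's quasi-likelihood test with an FDR threshold of 0.1 over 15864 genes. A member was called when it passed this threshold. Fcgr4 had 0 to 9 counts per mouse, did not pass the filter on low counts and was left out of the test, which left 9 members. In whole tissue, more cells of a type and more RNA per cell cannot be told apart.

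Sequence just upstream of the start sites was set beside the levels, to show which letters the members share there, with GAGGAA chosen as the core read by PU.1, a transcription factor of myeloid cells. RefSeq promoter windows (GRCm38.p6, 250 bases before to 50 after a start) were present for 9 members, in 11 windows. Tyrobp had no window and was not searched. The 100 bases before the start are shown for 4 members that hold the letters GAGGAA on either strand and whose stretch lies outside the exons of the deposited annotation. Capitals mark GAGGAA or its reverse complement TTCCTC, and in Inpp5d the longer GAGGAAGT. They are, in order, from chr17:48346301-48346400 (plus strand, directly upstream of Trem2), chr3:96293970-96294069 (minus strand, directly upstream of Fcgr1), chr1:171059404-171059503 (minus strand, in an intron of Fcgr3 in the deposited annotation) and chr1:87620212-87620311 (plus strand, directly upstream of Inpp5d).
Trem2: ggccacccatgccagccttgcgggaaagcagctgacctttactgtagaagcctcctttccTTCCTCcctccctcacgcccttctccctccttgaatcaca
Fcgr1: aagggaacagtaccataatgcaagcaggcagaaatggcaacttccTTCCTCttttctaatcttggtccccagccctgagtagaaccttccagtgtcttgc
Fcgr3: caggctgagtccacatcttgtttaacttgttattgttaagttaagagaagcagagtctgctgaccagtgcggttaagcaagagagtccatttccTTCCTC
Inpp5d: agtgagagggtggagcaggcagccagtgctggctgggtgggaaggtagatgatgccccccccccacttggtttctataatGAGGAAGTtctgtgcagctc

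Positions count the base at the start as 0. In the bases shown the letters lay at -40 to -35 in Trem2, at -55 to -50 in Fcgr1, at -6 to -1 in Fcgr3 and at -20 to -15 in Inpp5d. The window of Inpp5d also held GAGGAA on the other strand at 3 to 8, beyond the bases shown. Searched on both strands, GAGGAA was in 7 of the 11 windows and in 6 of the 9 members with a window (Trem2, Fcgr1, Fcgr3, Fcgr4, Syk and Inpp5d), and in 28.3% of all 32851 windows. The windows of Fcgr3 overlap and hold the same site, which the count of windows therefore includes more than once. The longer GAGGAAGT, which contains GAGGAA, was in the windows of Fcgr4 and Inpp5d and in 3.2% of all windows. Fcgr2b held the PU.1-IRF composite site, read by PU.1 together with an interferon regulatory factor, as did 0.731% of all windows. The letters TCACGTGA (an E-box read by MITF and TFE factors, in 0.974% of all windows) and TATAAA (in 13.6%) were in none of the members' windows. Of the 4 members shown, Trem2 and Fcgr3 rose with age in AL mice, and Fcgr1 and Inpp5d were not called. These matches describe letters only and do not show that a factor binds there.

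Per unit of deposited exon length, the adaptors were the most abundant members. That length was 564 bases for Tyrobp, 874 for Fcer1g and 4946 for Trem2, and the order depends on it. In CPM, which is not scaled to length, Trem2 averaged above Fcer1g in young AL (8.75 and 6.74), old AL (15.7 and 11.4) and old EOD mice (11.7 and 9.30). In young EOD mice it averaged below Fcer1g (5.88 and 6.56). Tyrobp averaged 88.3 TPM (counts scaled to gene length and library size) over the 15 mice, with every mouse above the highest value of Fcer1g (34.0 TPM on average, 20.7 to 48.8). Fcgr3 followed at 28.5 TPM (19.2 to 43.9), within the spread of Fcer1g, and every Fcgr3 value lay above the highest for Trem2. Trem2 (7.52 TPM), Inpp5d (6.17), Fcgr1 (5.10), Plcg2 (3.97) and Fcgr2b (3.78) formed a middle range in which neighbouring genes overlapped, and Syk (1.5) and Fcgr4 (0.771) were the lowest and overlapped as well.

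Of the 9 tested members 5 rose with age in AL mice, namely Trem2, both adaptors, Fcgr3 and Fcgr2b. This was 5 of 9 members called higher, against 0.946% of all tested genes (150 of 15864), and 5 members were called without the third young AL mouse too, against 0.931% of all tested genes. In the same 5 members every old AL mouse lay above every young AL mouse in CPM, as was so for 2.98% of all tested genes. The median log2 fold change was 0.73 over the 9 members and -0.01 over all tested genes.

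Trem2, the receptor, was at 7.83, 6.23, 12.3 and 8.62 CPM in the young AL mice and at 14.8, 13.8, 15.5 and 18.8 CPM in the old AL mice. The third young AL mouse was the highest of the young, and the old mice nevertheless lay above it. The mean rose 1.80-fold, with a log2 fold change of 0.84 (SE 0.169, edgeR FDR 0.0136). Without the third young AL mouse the log2 fold change was 1.07 (edgeR FDR 0.000297). Within lanes the difference was 1.06, 0.24 and 1.11 on the log2 scale, and the low value came from lane 2, whose only young AL mouse was the third.

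Tyrobp, the adaptor of Trem2, was at 8.80, 9.53, 8.91 and 10.9 CPM in young AL mice and at 20.1, 18.4, 22.1 and 21.3 CPM in old AL mice. The groups were far apart relative to their spread, and the mean was 2.15-fold higher in old mice. Its log2 fold change was 1.10 (SE 0.132, edgeR FDR 6.3e-05), and it was 1.07 without the third young AL mouse. Tyrobp differed by 0.96 to 1.16 on the log2 scale within the 3 lanes.

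Fcer1g, the adaptor of the activating Fc receptors, was at 5.18, 6.78, 8.23 and 6.78 CPM in young AL mice and at 12.3, 9.32, 12.5 and 11.6 CPM in old AL mice. The third young AL mouse was again the highest of the young and the groups did not overlap. The old mean was 1.69-fold the young mean, and 1.83-fold without that mouse. With all 15 mice the log2 fold change was 0.74 (SE 0.171, edgeR FDR 0.0392). This call was the least firm of the 5, because it was lost when the first young AL mouse or the first, the third or the fourth old AL mouse was left out (edgeR FDR 0.104 to 0.151), with a log2 fold change of 0.66 to 0.74 each time.

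Of the tested activating IgG receptors, Fcgr3 passed the test in AL mice and Fcgr1 did not. Fcgr3 was at 9.40, 11.0, 11.9 and 11.3 CPM in young AL mice and at 19.9, 14.4, 22.3 and 16.6 CPM in old AL mice. The old mice spread more widely than the young but lay above all of them, and the log2 fold change was 0.73 (SE 0.148, edgeR FDR 0.0149). Fcgr1, the high-affinity receptor, was at 3.49, 3.30, 3.85 and 3.68 CPM in young AL mice and at 4.48, 3.41, 4.73 and 4.29 CPM in old AL mice. These groups overlapped through the second old mouse, and the log2 fold change was 0.23 with a 95% interval of -0.21 to 0.67 (edgeR FDR 0.777). Fcgr4 was at 0.0837 to 0.680 CPM in young AL mice and at 0 to 0.588 CPM in old AL mice. A count of 0, found in 1 old AL and 1 young EOD mouse, allows up to 3 counts, or 0.394 and 0.516 CPM in these libraries. In EOD mice Fcgr4 was at 0.205, 0 and 0.131 CPM in the 3 young and at 0.670, 0.569, 0.276 and 0.385 CPM in the 4 old mice, which did not overlap but rest on 0 to 2 and 3 to 8 counts per mouse. With every gene of at least 1 count kept, the log2 fold change with age of Fcgr4 was -0.15 in AL mice (95% interval -1.97 to 1.66) and 1.82 in EOD mice (-0.32 to 3.96, unadjusted edgeR p 0.0948), so no difference was detectable at this depth.

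Fcgr2b, the inhibitory IgG receptor, had the largest log2 fold change of the 9 tested members in AL mice with all 15 mice in the fit. It was at 4.22, 4.76, 1.74 and 3.93 CPM in young AL mice and at 10.3, 8.92, 9.27 and 9.58 CPM in old AL mice. The third young AL mouse was far below the others, and the log2 fold change of 1.40 (SE 0.227, edgeR FDR 0.00197) fell to 1.15 without it (edgeR FDR 0.000641). The old mice thus held 2.60-fold the young mean with it and 2.21-fold without it. Fcgr2b, Fcgr3 and Fcgr4 lie close together on chromosome 1 and resemble each other in sequence, so some of their reads may be assigned uncertainly, which was not tested.

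The members downstream of the receptors were not called with age in AL mice. Syk, the kinase that binds the phosphorylated adaptors, was at 4.10, 4.12, 2.64 and 4.18 CPM in young AL mice and at 5.10, 5.12, 3.97 and 4.12 CPM in old AL mice. Its groups overlapped, and the log2 fold change was 0.29 (95% interval -0.21 to 0.79). The old mean of Syk was 1.22-fold the young mean, and 1.11-fold without the third young AL mouse. Plcg2, the phospholipase below Syk, was at 3.86, 3.30, 6.27 and 3.43 CPM in young AL mice and at 5.47, 5.25, 4.92 and 5.04 CPM in old AL mice. The third young AL mouse lay above every old mouse, and without it the remaining groups did not overlap and the log2 fold change went from 0.28 to 0.56 (95% interval 0.13 to 1.0). Inpp5d, the lipid phosphatase that limits the signal, was at 11.9, 11.0, 17.6 and 12.9 CPM in young AL mice and at 14.2, 16.8, 15.3 and 14.7 CPM in old AL mice. It showed the same picture, with a log2 fold change of 0.18 (95% interval -0.12 to 0.48) that became 0.35 (0.09 to 0.62) without that mouse. None of these 3 genes passed the FDR threshold in AL mice with or without it.

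**Figure D1:**
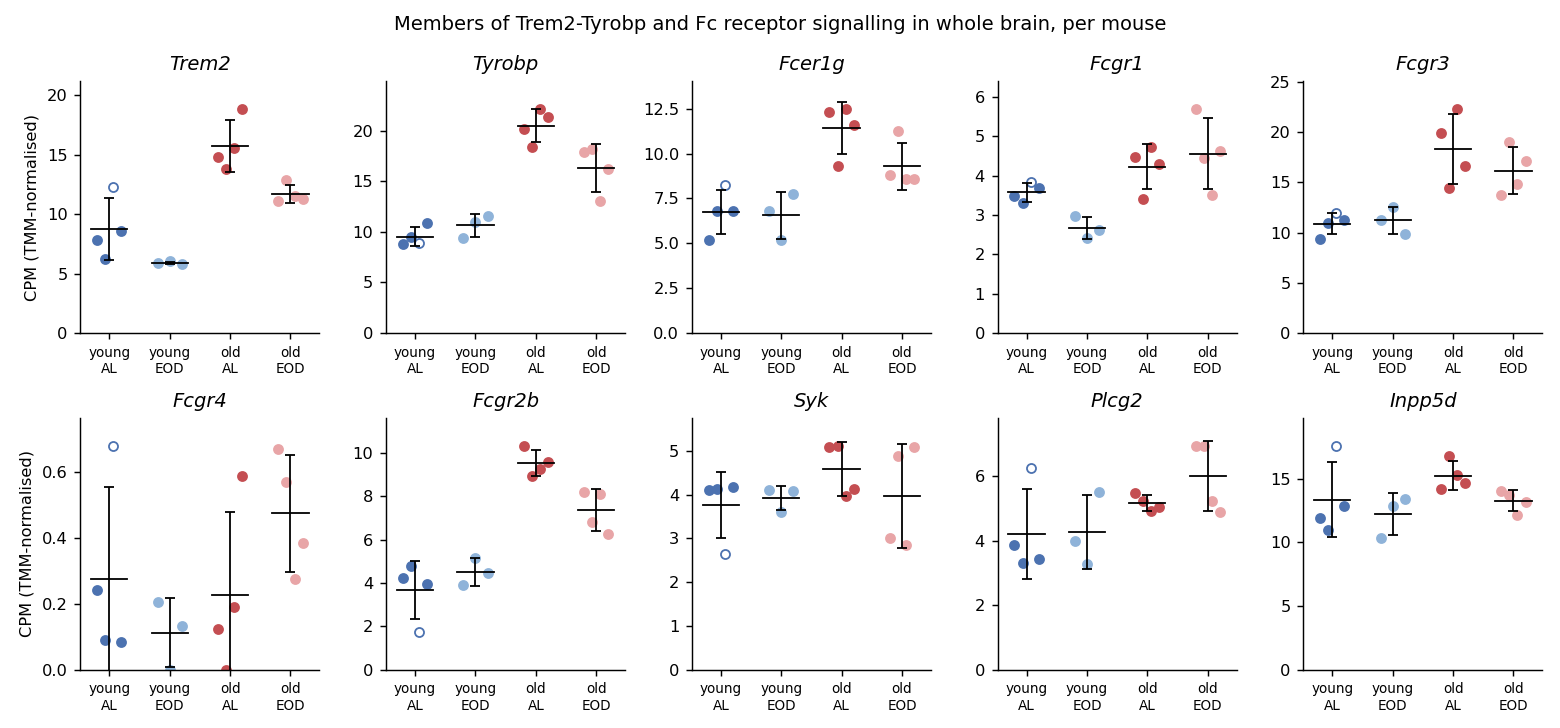
CPM of each of the 10 members (vertical axes, from 0, a scale of its own per gene) in the 4 groups, with 1 point per mouse and bars for mean ± SD (a bar reaching below 0 for Fcgr4 is cut at 0). The open circle is the third young AL mouse, which lies high for Trem2 (12.3 CPM) and Inpp5d (17.6 CPM) and low for Fcgr2b (1.74 CPM) and Syk (2.64 CPM).

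In EOD mice Trem2 alone was called with age. It was at 5.85, 6.02 and 5.78 CPM in the 3 young EOD mice and at 11.1, 12.9, 11.5 and 11.3 CPM in the 4 old EOD mice. The young mice were nearly alike, the mean rose 1.99-fold, and the log2 fold change was 0.99 (SE 0.201, edgeR FDR 0.0335). This was 1 of 9 members called higher, against 0.258% of all tested genes. The call was lost when any of the 3 young EOD mice or the second old EOD mouse was left out (edgeR FDR 0.127 to 0.267), although the log2 fold change stayed between 0.94 and 1.0 in these fits. Within lanes 1 and 2 Trem2 differed by 0.90 and 1.10 on the log2 scale.

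Tyrobp was at 9.34, 11.0 and 11.6 CPM in young EOD mice and at 17.8, 18.2, 13.1 and 16.2 CPM in old EOD mice. The old mice lay above the young, the third old mouse least so, and the log2 fold change of 0.62 (95% interval 0.32 to 0.93) had an edgeR FDR of 0.126. Without the third young AL mouse, which enters through the shared estimate of the spread, 3 members were called higher in EOD mice, against 0.421% of all tested genes. These were Trem2 (edgeR FDR 0.00345), Tyrobp (0.066) and Fcgr2b (0.099), and Tyrobp was also called when the third old EOD mouse was left out (edgeR FDR 0.0474).

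The other receptors also lay higher in old EOD mice without passing the test. Fcgr1 was at 2.98, 2.41 and 2.63 CPM in young and at 5.70, 4.44, 3.50 and 4.62 CPM in old EOD mice, a log2 fold change of 0.76 (95% interval 0.26 to 1.26, edgeR FDR 0.498). Fcgr2b was at 3.90, 5.16 and 4.47 CPM in young and at 8.21, 6.83, 8.10 and 6.25 CPM in old EOD mice, a log2 fold change of 0.72 (0.20 to 1.25). For both genes all old mice were above all young mice. Fcgr3 ranged from 9.86 to 12.6 CPM in young and from 13.7 to 19.0 CPM in old EOD mice, with a log2 fold change of 0.53 (0.18 to 0.87). Fcer1g ranged from 5.16 to 7.75 CPM in young and from 8.56 to 11.3 CPM in old EOD mice, with a log2 fold change of 0.48 (0.08 to 0.89). In all, the groups did not overlap in 6 of the 9 tested members, against 4.75% of all tested genes in which every old EOD mouse lay above every young one. Below the receptors, Plcg2 (0.48, -0.04 to 1.01), Inpp5d (0.13, -0.20 to 0.46) and Syk (-0.00, -0.55 to 0.54) had intervals that included 0.

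**Figure D2:**
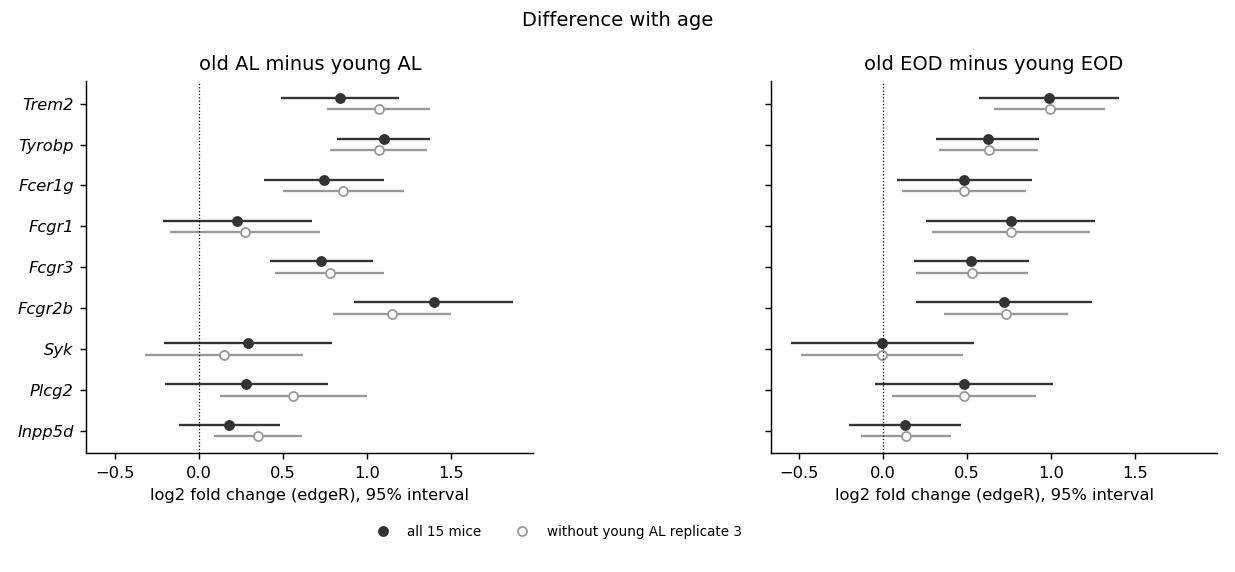
Log2 fold change with age (horizontal axis, edgeR) of the 9 tested members in AL mice (left) and EOD mice (right), with 95% intervals, for all 15 mice (filled) and without the third young AL mouse (open). The largest values are those of Fcgr2b (1.40) and Tyrobp (1.10) in AL mice and of Trem2 (0.99) in EOD mice, and Syk lies nearest to 0 in EOD mice.

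Averaged over both diets, Tyrobp (log2 fold change 0.86, edgeR FDR 1.6e-05), Trem2 (0.91, FDR 0.000289), Fcgr2b (1.06, FDR 0.000947), Fcgr3 and Fcer1g were called higher in old mice. These 5 of 9 members compare with 1.62% of all tested genes. Without the third young AL mouse Plcg2 was called as well (log2 fold change 0.52, edgeR FDR 0.0832), which made 6 members against 1.91% of all tested genes.

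Diet gave no called member at either age. By edgeR 0 of 9 members were called at either age, over both ages together or for the interaction of age and diet, where 0% of all tested genes were called as well, and DESeq2 and limma voom called 0 members in each of these comparisons. Trem2 nevertheless lay lower under EOD at both ages. The young EOD mice (5.78 to 6.02 CPM) were all below the young AL mice (6.23 to 12.3 CPM), and the old EOD mice (11.1 to 12.9 CPM) were all below the old AL mice (13.8 to 18.8 CPM). The log2 fold change was -0.58 in young mice (95% interval -1.01 to -0.16, unadjusted p 0.009) and -0.44 in old mice (-0.78 to -0.09, unadjusted p 0.0155).

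Averaged over both ages, Trem2 fell by 0.51 on the log2 scale in EOD mice relative to AL mice (SE 0.131, unadjusted edgeR p 0.000839, FDR 0.983). Of 23 alternatives it was called in 1, in which no filter beyond 1 count was applied to genes (edgeR FDR 0.073). That setting called 65 of 26269 genes in this comparison, against 0 of 15864 in the main fit. Without the third young AL mouse the difference of Trem2 was -0.36 in young mice (unadjusted edgeR p 0.0508), -0.44 in old mice (unadjusted edgeR p 0.00261) and -0.40 averaged (edgeR FDR 0.764). Within lanes, Trem2 differed by -0.40, -0.18 and -0.72 on the log2 scale in old mice and by -0.25 in young mice of lane 1. In lane 2 the young difference was -1.04 against the third young AL mouse alone.

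In old mice Tyrobp was also lower under EOD, at 13.1 to 18.2 CPM against 18.4 to 22.1 CPM, with a log2 fold change of -0.33 (95% interval -0.59 to -0.06, unadjusted edgeR p 0.0177). Its difference was -0.17, -0.15 and -0.55 in the 3 lanes. Together with Trem2 this made 2 of 9 members at an unadjusted p under 0.05 in old mice, against 2.58% of all tested genes. The count was 1 when the fourth old AL mouse or the third old EOD mouse was left out, and 2 or 3 without any other mouse. In young mice 1 member (Trem2) reached it, against 4.14%, and averaged over ages 1 member (Trem2), against 4.51%.

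Every old EOD mouse lay below every old AL mouse in 4 of the 9 tested members, Trem2, Tyrobp, Fcgr2b and Inpp5d, against 1.36% of all tested genes. The log2 fold change of Fcgr2b was -0.37 (95% interval -0.82 to 0.07) and that of Inpp5d -0.20 (-0.50 to 0.10). In young mice every EOD mouse lay below every AL mouse in 2 members, Trem2 and Fcgr1, against 2.05% of all tested genes. Fcgr1 (log2 fold change -0.41, -0.92 to 0.10) had an interval that included 0. Over the 9 members the median log2 fold change was -0.22 in old and 0.01 in young mice, and it was within 0.01 of 0 over all tested genes. These comparisons share mice with the age comparisons, so a high AL mouse enters both.

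**Figure D3:**
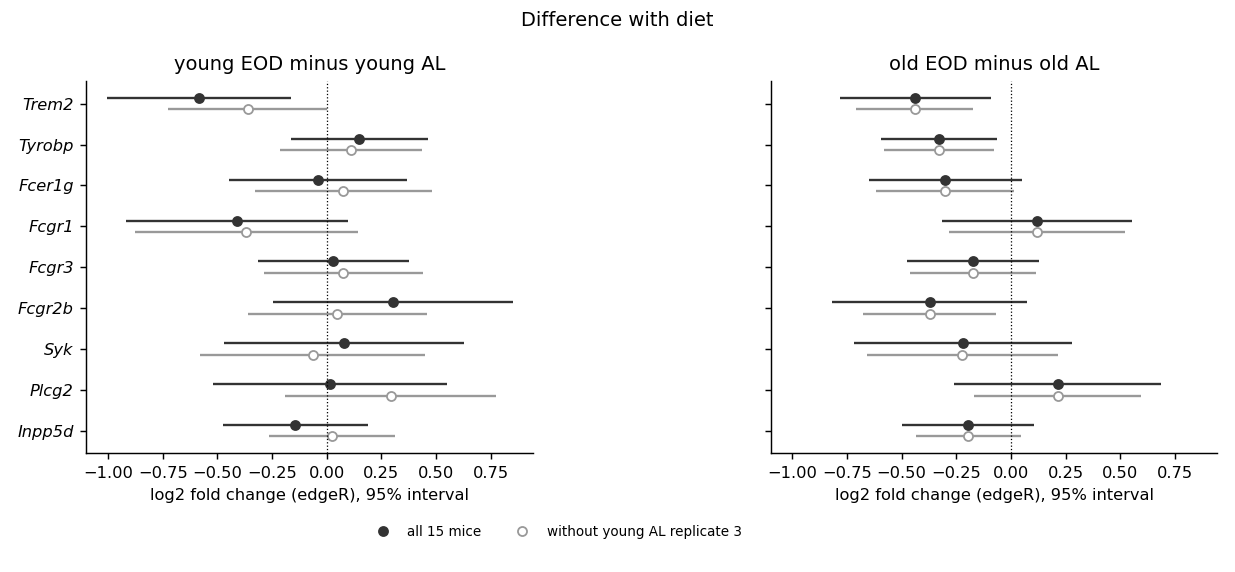
Log2 fold change of EOD relative to AL (horizontal axis, edgeR) of the 9 tested members in young mice (left) and old mice (right), with 95% intervals, for all 15 mice (filled) and without the third young AL mouse (open). Trem2 lies left of 0 at both ages (-0.58 and -0.44), and its interval in young mice reaches 0 once the third young AL mouse is left out.

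The difference with age was compared between diets by the interaction term. For Tyrobp the change with age on the log2 scale was 0.48 smaller in EOD than in AL mice (interaction -0.48, 95% interval -0.89 to -0.07), with an unadjusted edgeR p of 0.0251 and an FDR of 1.0. Tyrobp was the 1 member under an unadjusted p of 0.05, against 2.28% of all tested genes. For Fcgr2b the interaction was -0.68 (-1.38 to 0.03), and it was -0.42 without the third young AL mouse. For Trem2 it was 0.15 (-0.40 to 0.69), and -0.08 without that mouse, so that the age difference of Trem2 was not shown to depend on diet in either direction. Fcgr1 had an interaction of 0.53 (-0.14 to 1.20).

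Microglial markers were higher with age too. The summed level of 10 homeostatic microglial markers was 401 to 416 CPM in young AL mice, 372 to 406 CPM in young EOD mice, 476 to 515 CPM in old AL mice and 454 to 523 CPM in old EOD mice, so that old and young mice did not overlap. None of the 10 was at 0 in any group. Among them Selplg, a ligand of selectins, was called in AL mice (log2 fold change 0.63, edgeR FDR 0.076) though not without the third young AL mouse. The markers did not rise alike. In AL mice 9 of the 10 had a log2 fold change above 0, with a median of 0.18. P2ry12 (-0.02), Gpr34 (0.03), Sall1 (0.07) and P2ry13 (0.08) lay near 0 there. In EOD mice all 10 were above 0, with a median of 0.35. The mean log2 CPM of the 10 markers was 0.22 higher in old AL mice and 0.32 higher in old EOD mice.

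Each member was therefore also expressed relative to the mean log2 CPM of these markers in the same mouse, and compared by exact two-sided permutation over mice, in 18 comparisons without adjustment. With these group sizes the smallest p the test can give is 0.0286. In AL mice Fcgr2b stayed 1.20 higher with age on this log2 scale, Tyrobp 0.87 and Fcgr3 0.51, each with no overlap between groups (exact permutation p 0.0286). Trem2 was 0.65 higher and Fcer1g 0.53 (exact permutation p 0.0571 each). With the third young AL mouse left out Fcgr2b was 0.89, Tyrobp 0.84 and Trem2 0.82 higher (exact permutation p 0.0286 each), and Fcer1g was 0.63 and Fcgr3 0.55 higher (exact permutation p 0.0571 each), with no overlap in any of the 5.

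The other members differed less from the markers in AL mice. Relative to them Fcgr1 differed by 0.00, Syk by 0.07, Plcg2 by 0.11 and Inpp5d by -0.01. Without the third young AL mouse Plcg2 differed by 0.31 with no overlap (exact permutation p 0.0286), and Syk by -0.09 with overlap. In EOD mice Trem2 was 0.64 higher relative to the markers, with no overlap (exact permutation p 0.0286), while Tyrobp was 0.28 higher (exact permutation p 0.114) and Fcgr2b 0.36 (exact permutation p 0.0857). There Fcgr1 differed by 0.39 (exact permutation p 0.114), Fcgr3 by 0.19, Fcer1g by 0.18 and Plcg2 by 0.17. Syk (-0.35) and Inpp5d (-0.20) were lower relative to the markers in old than in young EOD mice. Among the EOD mice only Trem2 had no overlap.

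**Figure D4:**
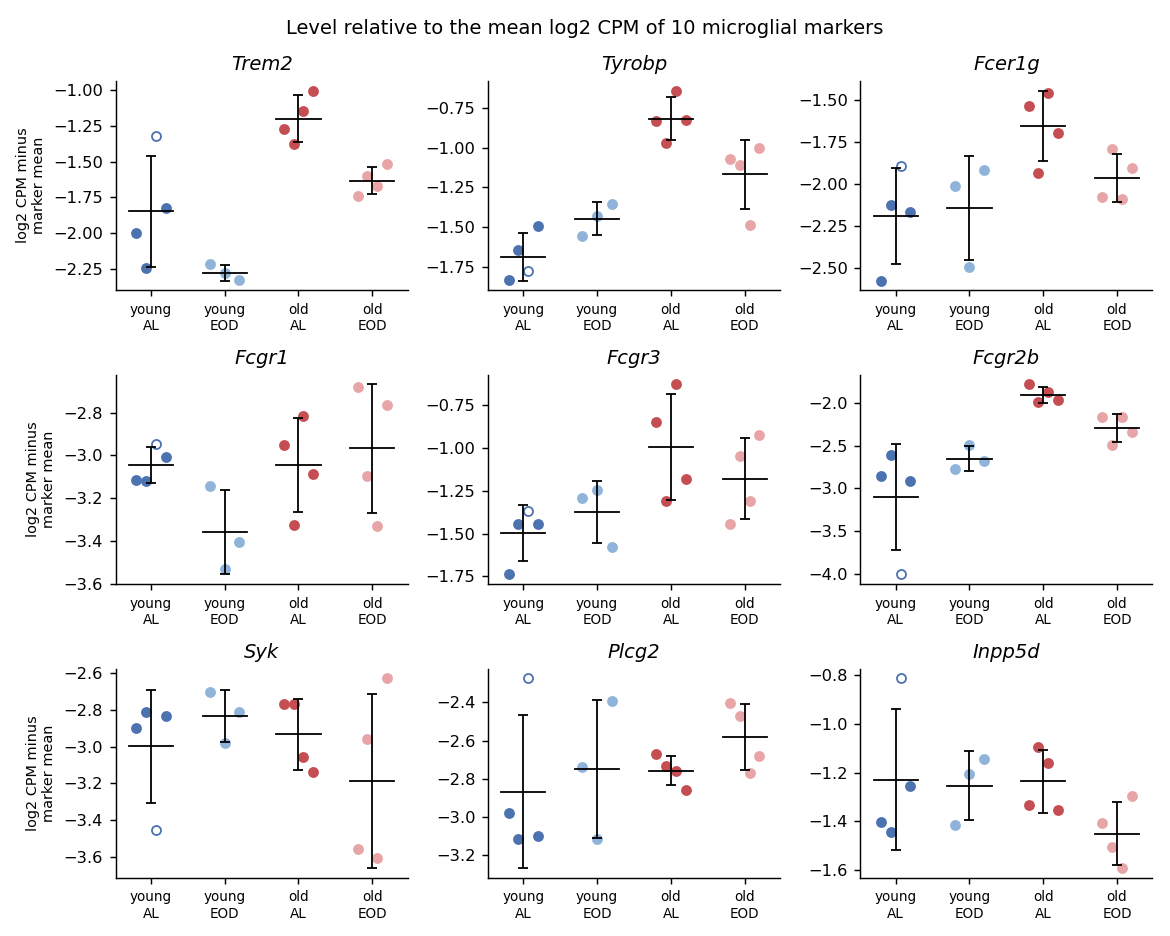
Log2 CPM of the 9 tested members minus the mean log2 CPM of 10 homeostatic microglial markers in the same mouse (vertical axes, a scale of its own per gene), by group, with 1 point per mouse and mean ± SD. The open circle is the third young AL mouse. Tyrobp and Fcgr2b keep a gap between young and old AL mice (0.87 and 1.20), and Inpp5d does not (-0.01).

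Among markers of other cells that can carry these receptors, those of monocytes, B cells and T and NK cells were low. Monocyte markers summed to 0 to 2.61 CPM, B cell markers to 0 to 1.71 CPM and T and NK cell markers to 0.0755 to 1.44 CPM over the groups. The neutrophil marker Ly6g was at 0 in all 15 mice, and the 6 neutrophil markers summed to at most 3.66 CPM outside old AL mice and reached 21.8 CPM in 1 old AL mouse. S100a9, a calcium-binding protein of neutrophils and the 1 neutrophil marker tested, was at 0 to 0.458 CPM in young AL, 0 to 0.344 in young EOD, 0.124 to 9.27 in old AL and 0.335 to 1.54 CPM in old EOD mice. It was called higher with age averaged over both diets (edgeR FDR 0.0735) but not without the third young AL mouse (edgeR FDR 0.125) or in AL mice (edgeR FDR 0.104). Border-associated macrophage markers summed to 18.9 to 26.0 CPM in young AL and 11.9 to 22.4 CPM in old AL mice, with log2 fold changes below 0 in all 6 tested. By edgeR 0 of these 6 were called in AL mice (2 had an unadjusted p under 0.05), and DESeq2 and voom called 0. The part of these cells in the members' levels was not tested.

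The other pathway genes called in AL mice, 6 of 81 tested, were receptors, an immunoglobulin chain and a transcription factor. All 6 were higher with age, against 0.946% of all tested genes called higher. Of 7 tested receptors and adaptors that also couple to ITAM signalling, 2 were called higher. Clec7a (Dectin-1, a receptor for fungal glucans) went from 0.456 ± 0.523 CPM (SD, n = 4) to 5.22 ± 0.834 CPM (n = 4), and Itgb2, the beta chain of leukocyte integrins, from 5.15 ± 1.31 to 11.3 ± 1.69 CPM (log2 fold change 1.12, edgeR FDR 0.00225). Of 18 tested inhibitory receptors and signal terminators 2 were called higher, Lair1, a collagen receptor (log2 fold change 0.70, edgeR FDR 0.0328), and Cd22, a sialic acid receptor (0.127 ± 0.107 to 1.46 ± 0.414 CPM, edgeR FDR 0.0127).

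With all 15 mice the light chain constant gene Igkc was the 1 of 4 tested immunoglobulin chains called, from 0.135 ± 0.219 CPM in young AL mice to 4.12 ± 2.14 CPM in old AL mice (edgeR FDR 0.000329). Of 6 tested myeloid transcription factors Irf8, an interferon regulatory factor needed by microglia, was called (3.00 ± 0.436 to 7.11 ± 1.07 CPM, log2 fold change 1.23, edgeR FDR 0.00282), and Spi1, which encodes PU.1, was not (0.41, edgeR FDR 0.766). Clec7a, Igkc and Cd22 were near 0 in young AL mice, so their fold changes are not given. When the third young AL mouse was left out 9 of 80 tested pathway genes were called, all higher, against 0.931% of all tested genes called higher. The 3 added were Ptpn6, Ighm (the heavy chain of IgM) and Itgam (the alpha chain of an integrin that pairs with Itgb2). Ptpn6 encodes SHP-1, a phosphatase through which inhibitory receptors end activating signals. The log2 fold changes of these 3 genes went from 0.78 to 1.02 for Ptpn6 (edgeR FDR 0.0200), from 0.43 to 0.79 for Ighm (edgeR FDR 0.00452) and from 0.30 to 0.53 for Itgam (edgeR FDR 0.0119). In each of the 3 the third young AL mouse was the highest of the young AL mice, at 4.76 CPM for Ptpn6, 41.9 for Ighm and 35.8 CPM for Itgam.

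By edgeR 0 of 9 kinases of the Src, Tec and Syk families (4 at an unadjusted p under 0.05) and 0 of 29 adaptors and effectors below Syk (6 at an unadjusted p under 0.05) were called in AL mice, and DESeq2 and voom called 0 of both. Of all tested genes 9.52% had an unadjusted p under 0.05. The median log2 fold change was 0.14 over the kinases and 0.10 over the effectors. Neither the 4 tested ligands and sheddases of Trem2 (Apoe had a log2 fold change of 0.37 and an edgeR FDR of 0.169) nor the 4 tested other Fc receptors held a call by edgeR, with 1 of each at an unadjusted p under 0.05. DESeq2 called Apoe, a lipoprotein that Trem2 binds (FDR 0.0876), and none of the other Fc receptors, and voom called none of either. The other TREM receptors were too low to be tested by edgeR.

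Averaged over both diets, calls were made below the receptors as well. Of the 81 tested pathway genes 9 were called higher and 2 lower in old mice, against 257 and 108 of all 15864 tested genes. The kinase Fyn, a Src family member used by many brain cells, was lower (139 ± 5.66 CPM in young AL and 125 ± 4.41 CPM in old AL mice, n = 4 each, log2 fold change over both diets -0.16, edgeR FDR 0.0884). The transcription factor Mef2c, abundant in neurons as well as microglia, was also lower (-0.34, edgeR FDR 0.0729). Neither was called without the third young AL mouse (edgeR FDR 0.121 for Fyn and 0.135 for Mef2c).

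Of the effectors below Syk the GTPase Rac2 was called higher (log2 fold change 1.13, edgeR FDR 0.0839), and it was 0.95 without the third young AL mouse (edgeR FDR 0.0283), in which it had its lowest value (0.227 CPM). Ptpn6 (0.68, edgeR FDR 0.0477) and Apoe (0.31, edgeR FDR 0.0598) were called higher too, beside the 6 genes called in AL mice. Without that mouse 13 of 80 were called, all higher, against 1.91% of all tested genes called higher. The genes added were Ighm (edgeR FDR 0.0045), Itgam (0.0104), Ighg2c (0.0872), an IgG heavy chain, and Pirb (0.0922), an inhibitory receptor. With all 15 mice DESeq2 called the same 11 pathway genes and the TREM receptor Treml2 (FDR 0.0855).

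In EOD mice edgeR called 0 genes of these pathway lists with age when all 15 mice were used, with 15 of 81 tested genes at an unadjusted p under 0.05, against 5.74% of all tested genes, while DESeq2 called 1 and voom 3. Without the third young AL mouse edgeR called Clec7a (FDR 0.0167), Itgb2 (log2 fold change 0.81, FDR 0.066) and Lair1 (0.64, FDR 0.0943). Clec7a was at 0.172 to 0.920 CPM in young and at 2.05 to 4.05 CPM in old EOD mice. Its fold change is not given, because the young EOD values were near 0 as well. With diet 0 of these genes were called by edgeR, DESeq2 or voom at either age, and 1 in young and 3 in old mice had an unadjusted edgeR p under 0.05. These counts are of 81 tested genes, against 4.14% of all tested genes in young and 2.58% in old mice.

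**Figure D5:**
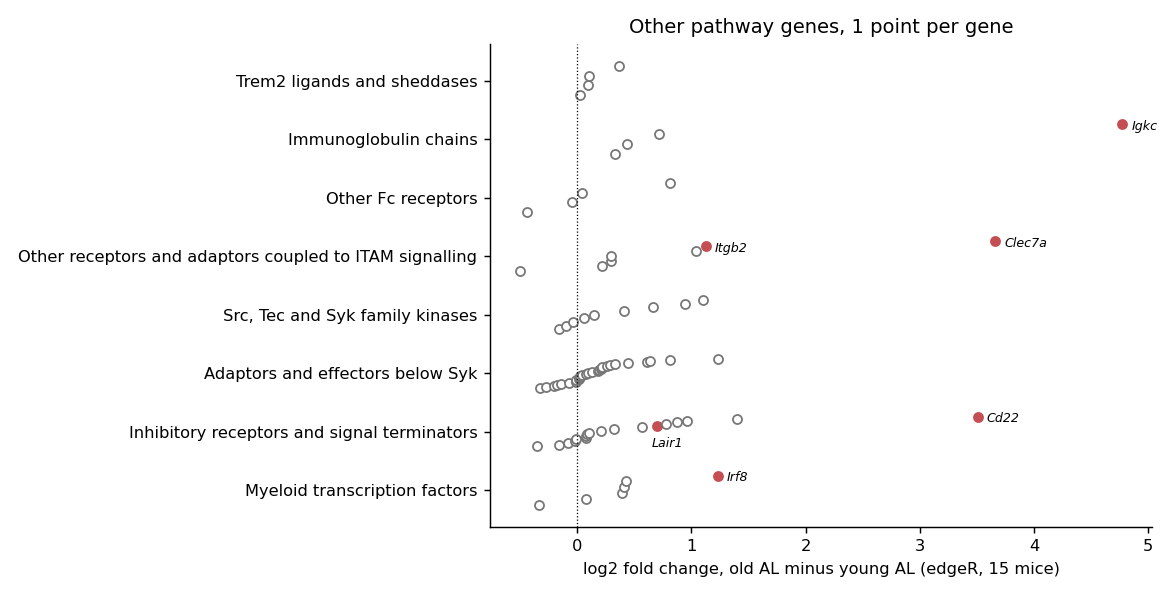
Log2 fold change of old relative to young AL mice (horizontal axis, edgeR, 15 mice) of the tested genes of 8 other pathway lists, with 1 point per gene. Filled red points passed FDR 0.1, and they lie among receptors, inhibitory receptors, immunoglobulin chains and transcription factors, with none among the kinases or the adaptors and effectors below Syk.

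Across mice, after the group means were subtracted, pairs of members varied together to very different degrees. Over the 36 pairs of tested members Pearson's r ranged from -0.77 (Trem2 and Fcgr2b) to 0.69 (Plcg2 and Inpp5d) with a median of 0.187, over 15 mice whose library depth enters both genes of a pair. Over the 14 mice without the third young AL mouse these 2 pairs had r of -0.25 and 0.34, and the range was -0.65 (Fcgr2b and Syk) to 0.57 (Tyrobp and Inpp5d) with a median of 0.147. The genes whose deviations were most like those of Trem2 among 14123 genes were Arrdc4 (r 0.90), Tmem132d (0.90), Kif5a (0.90), Rfc4 (0.86) and Shroom1 (0.85). This likeness rested on the third young AL mouse, since without it the 5 ranked from 21 to 417. For Tyrobp they were Fam241b (0.87), Nkx2-1 (0.86), Fxyd1 (0.85), Yy1 (0.83) and Plekhb2 (0.83). The genes named for Trem2 and Tyrobp were picked as the highest of 14123 values of r over only 15 mice. Whether they are linked to either member was not tested.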

How the data were processed

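Whole-brain RNA of 15 mice was measured, 1 library per mouse, grouped by the labels. The authors sequenced 50-base single-end reads, used STAR for alignment (Ensembl GRCm38) and counted on the exons of Ensembl release 79 genes with featureCounts 1.5.0-p1 (minimum mapping quality 5, primary alignments, reverse-stranded). The authors deposited raw counts for each gene and its length. Since strand was used, antisense genes were counted apart. Features that overlap the members had no counts. The study's methods put the start of analyses of old mice earlier than the age in the labels.

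Of 43629 genes 42462 received a symbol. The members and gene lists were chosen with earlier results of these data known. The test was that of edgeR 4.0.16 under R 4.3.3 (filterByExpr, TMM, quasi-likelihood test, Benjamini-Hochberg adjustment over 15864 genes, FDR under 0.1) in 1 fit of the 4 group means. SE was derived from the log2 fold change and its F statistic. TPM used the deposited exon lengths. Levels relative to markers were on the log2 CPM scale (prior count 2). All 10 members were described. Other pathway genes were named where they passed FDR 0.1 with age in AL or in EOD mice, with diet or in the interaction. Spi1, Apoe, S100a9, the microglial markers near 0 and the genes called only with age averaged over diets were named after their values were seen. The 5 genes most like Trem2 or Tyrobp needed an average log2 CPM of at least 1. Total counts ranged from 5198748 to 13610729, and counts of 14 to 254 per mouse in the 9 tested members limit the precision. The result of 1 marker gene is not reported here. The 21 pairs of replicate mice differed by more than sampling noise (chi-square per degree of freedom 3.01 to 16.6). Steps were tested on simulated data. Alternatives were other filters, RLE size factors, DESeq2 1.42.0, limma 3.58.1 voom with quality weights, FDR 0.05, replicate block, lane, only the groups compared, another prior count, other marker summaries and leaving out each mouse.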

Additional observations from a re-analysis of the deposited data

Results flagged for a closer look

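In 2 of 30 groups of 4 mice, 1 mouse lay far from the other 3 relative to the whole range of the group, and chance alone gives about 1 in 20 such groups. The second old EOD mouse had 11.3 CPM of Fcer1g, against 8.56 to 8.79 CPM in the other old EOD mice. Syk was at 2.64 CPM in the third young AL mouse, against 4.10 to 4.18 CPM in the other young AL mice, and it is the mouse with the fewest genes detected.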

How the results depend on the processing

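Counts of called members were recomputed under each alternative. In AL mice the count with age was 5, and it was 3 when only the groups compared were fitted, where Trem2 (FDR 0.109) and Fcer1g (FDR 0.139) were lost. That fit called 80 of 15190 genes higher. In EOD mice the count was 1, and it was 2 with DESeq2 (60 of 16920 genes called higher) and 3 with voom (89 of 15864). Averaged over ages, the diet comparison went from 0 to 1 (Trem2) with every gene of at least 1 count, where 65 of 26269 genes were called. With the replicate block the counts were 5, 1 and 5 for age in AL, in EOD and averaged, and 0 for each diet comparison and the interaction. Same-numbered mice did not deviate together (r -0.113 to 0.113 over 21 pairs), so the number was not treated as a pairing. Leaving out each mouse in turn, the count ranged from 4 to 5 in AL, from 0 to 3 in EOD, and from 5 to 6 averaged over diets, was 0 for each diet comparison and the interaction, and the median difference relative to the markers in AL ranged from 0.38 to 0.61. Signs turned only among member values that were not called, and the cause was not tested. With lane as a covariate the log2 fold change with diet in young mice was -0.00861 for Fcgr3 and -0.10 for Plcg2 (-0.0454 with the replicate block), the averaged diet difference of Fcgr2b was 0.00087 and the interaction of Inpp5d 0.10. With voom, diet in young mice gave 0.00803 for Fcer1g and -0.0200 for Syk, and the interaction of Trem2 was -0.0408. Leaving out a mouse, Syk with age in EOD ranged from -0.15 to 0.13. Diet in young mice ranged from -0.23 to 0.0233 for Inpp5d, -0.0459 to 0.12 for Fcgr3, -0.17 to 0.0912 for Fcer1g, -0.21 to 0.29 for Plcg2 and -0.0642 to 0.14 for Syk. Diet in old mice ranged from -0.0120 to 0.23 for Fcgr1, averaged diet from -0.16 to 0.0473 for Fcgr2b, and the interaction from -0.22 to 0.0323 for Inpp5d, -0.0784 to 0.42 for Plcg2 and -0.0781 to 0.28 for Trem2. Counts of 14 to 68 per mouse limit Fcgr1. Fcgr4 was tested only with every gene of at least 1 count and with DESeq2, and was not called there (DESeq2 gave no adjusted p for age in EOD).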
